A study of Mus musculus with 16 samples.

Results

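The genes described here encode receptors, bridging proteins and engulfment adaptors of efferocytosis, the uptake of apoptotic cells by phagocytes. They were the 10 genes Mertk, Axl, Tyro3, Timd4 and Lrp1 (receptors), Mfge8 and Pros1 (bridges) and Elmo1, Dock1 and Gulp1 (adaptors), taken by name, and they were read on the array from the probe sets that carried one of these symbols and no other. The rule found 18 of 45101 probe sets, with 1 each for Mertk, Timd4, Mfge8 and Pros1, 2 each for Axl, Tyro3, Lrp1 and Dock1, and 3 each for Elmo1 and Gulp1.

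Macrophages had been sorted from perigonadal fat of C57BL/6J mice aged 12 to 14 weeks, either lean (Lep +/+) or obese and leptin-deficient (Lep ob/ob). FB cells carried the macrophage antigen encoded by Adgre1 and CD11b but not CD11c, and FBC cells carried all 3. Each of the 4 groups (FB and FBC of either genotype) had 4 arrays, made from RNA amplified in 2 rounds, and the design text speaks of 4 lean and 4 obese mice. In the obese mice leptin is missing from every tissue from birth, so diet-induced obesity was not measured. Nothing in the labels ties an array to a mouse, and a p-value here reflects how far arrays of 1 group differ. The FB and FBC arrays of a genotype may come from the same mice. The main tests treat them as independent.

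An apoptotic cell exposes phosphatidylserine on its surface. Phagocytes bind it directly, through receptors such as the Timd4 product, or through soluble bridges. The Pros1 product (protein S) links it to the receptor kinases Tyro3 and Mertk, and the Mfge8 product links it to integrins that contain the alpha v chain. Lrp1 is an endocytic receptor that also recognises calreticulin on dying cells. The adaptor Gulp1 binds the tail of Lrp1, and the Elmo1 and Dock1 products act together to activate the GTPase Rac, which drives the closing of the phagocytic cup. Adipose tissue macrophages are known to gather around dead adipocytes in obesity.

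Values are log2(intensity + 16) after quantile normalization, a scale with a floor near 4 on which the median probe set of each array lies at 5.87; it understates the change of dim genes. For each gene the probe set with the highest mean was tested, and differences are log2 ± SE from limma with Benjamini-Hochberg adjustment over 11908 genes, called at an adjusted p under 0.05. Tested were 9 of the 10 members. Tyro3 did not pass the filter (above the array median on at least 4 arrays): its brighter probe set was above the median on 1 of 16 arrays, with values from 4.61 to 5.91, and its other probe set on 0. Timd4 and Gulp1, above the median on 11 and 7 arrays, passed mainly through the lean groups, and the other 7 were above it on all 16.

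The sort markers followed the labels. Itgax, which encodes CD11c, lay between 8.55 and 9.31 on the 8 FB arrays and between 9.69 and 11.48 on the 8 FBC arrays, and all 8 macrophage markers were above the array median on every array. The ratio of 3′ to 5′ actin signal, a sign of RNA quality, reached 53.3 and 48.0 on array 4 of FB and FBC from lean mice and 45.0 on array 4 of obese FB, while the other arrays lay between 1.15 and 10.9; none of the high 3 is an obese FBC array.

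The sequences shown are the 250 bases before the transcription start of the 3 members that rose in obese FBC macrophages, Mfge8, Lrp1 and Axl, and of Timd4, which fell in both populations, so that members that moved apart can be read side by side. They are from RefSeq, build GRCm38.p6, written 5′ to 3′ on the strand of the gene, and capitals mark GC boxes (GGGCGG on either strand).
Mfge8, chr7:79149061-79149310, minus strand: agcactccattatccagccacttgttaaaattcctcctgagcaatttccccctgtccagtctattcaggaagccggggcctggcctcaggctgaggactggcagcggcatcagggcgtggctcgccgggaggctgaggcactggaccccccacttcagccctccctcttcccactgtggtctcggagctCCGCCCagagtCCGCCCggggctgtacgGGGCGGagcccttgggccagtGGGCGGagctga
Lrp1, chr10:127621149-127621398, minus strand: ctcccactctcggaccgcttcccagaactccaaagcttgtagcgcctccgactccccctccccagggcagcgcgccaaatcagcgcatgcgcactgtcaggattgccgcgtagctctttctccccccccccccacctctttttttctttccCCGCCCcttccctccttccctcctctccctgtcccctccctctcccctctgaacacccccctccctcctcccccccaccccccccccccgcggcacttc
Axl, chr7:25788734-25788983, minus strand: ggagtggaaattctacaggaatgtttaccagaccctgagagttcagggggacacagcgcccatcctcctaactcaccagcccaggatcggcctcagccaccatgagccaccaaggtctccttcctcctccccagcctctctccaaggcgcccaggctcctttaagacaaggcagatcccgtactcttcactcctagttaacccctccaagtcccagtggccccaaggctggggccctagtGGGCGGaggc
Timd4, chr11:46810549-46810798, plus strand: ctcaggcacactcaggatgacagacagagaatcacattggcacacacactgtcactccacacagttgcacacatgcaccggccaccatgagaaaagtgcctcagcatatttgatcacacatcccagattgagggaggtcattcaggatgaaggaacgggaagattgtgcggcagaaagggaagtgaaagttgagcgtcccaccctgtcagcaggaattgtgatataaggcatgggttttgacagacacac
The Mfge8 window held 4 GC boxes, the Lrp1 and Axl windows 1 each and the Timd4 window 0. Among windows not shown, that of Pros1, which was not called, held 5. Those of Mertk, Tyro3 and Dock1 and the first of Elmo1 held 3 each, and that of Gulp1, which fell in FB, held 1. The 11 promoter entries searched covered all 10 members, with 2 for Elmo1. By gene, 9 of the 10 had a GC box in at least 1 window, and the second Elmo1 window had none. Counted by single windows, 32.7% of all 32851 promoter windows had one, and these include windows of noncoding genes. The PU.1 motif GAGGAAGT, the E-box CACGTG and the AP-1 motif TGANTCA, searched on both strands, were found in 0 of the 10, and in 2.4%, 6.0% and 6.7% of all windows. These are matches of letters, and no binding was measured.

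With obesity Timd4 fell in both populations, Gulp1 fell in FB, and Mfge8, Lrp1 and Axl rose in FBC, each on its brightest probe set. Another probe set did not follow for Gulp1 in FB (-0.11) or for Lrp1 in FBC (-0.11). In FB macrophages 0 of the 9 tested members rose and 2 fell, Timd4 and Gulp1, where 5.89% of all genes were called (1.81% higher and 4.07% lower). Both had passed the filter mainly through the lean groups, which favours a fall. The counts of members that fell are therefore only descriptions, here and for Timd4 in FBC. In FBC macrophages 3 rose, Mfge8, Lrp1 and Axl, and 1 fell, Timd4, where 14.1% of all genes were called (8.12% higher and 5.95% lower). The median difference of the members was -0.19 in FB and 0.23 in FBC, against 0.03 and 0.08 over all genes tested. The groups did not overlap for 1 member in FB and 4 in FBC, against 11.8% and 20.0% of all genes. In the same comparison in FBC, 3 of 7 monocyte markers fell (summed intensity 7154 to 12550.5 in lean and 5576 to 6371 in obese mice). Of 8 macrophage markers 2 rose there (46519 to 61015 in lean and 65435 to 69265 in obese mice). In FB 3 of the 7 monocyte markers rose (10478 to 30490 in lean and 27475 to 41189 in obese mice). These FB ranges overlap through lean FB array 4, at 30490. The part of these markers in the members' changes was not tested. In bulk RNA of a sorted population, fewer cells that express a gene and less RNA per cell cannot be told apart.

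**Figure D1:**
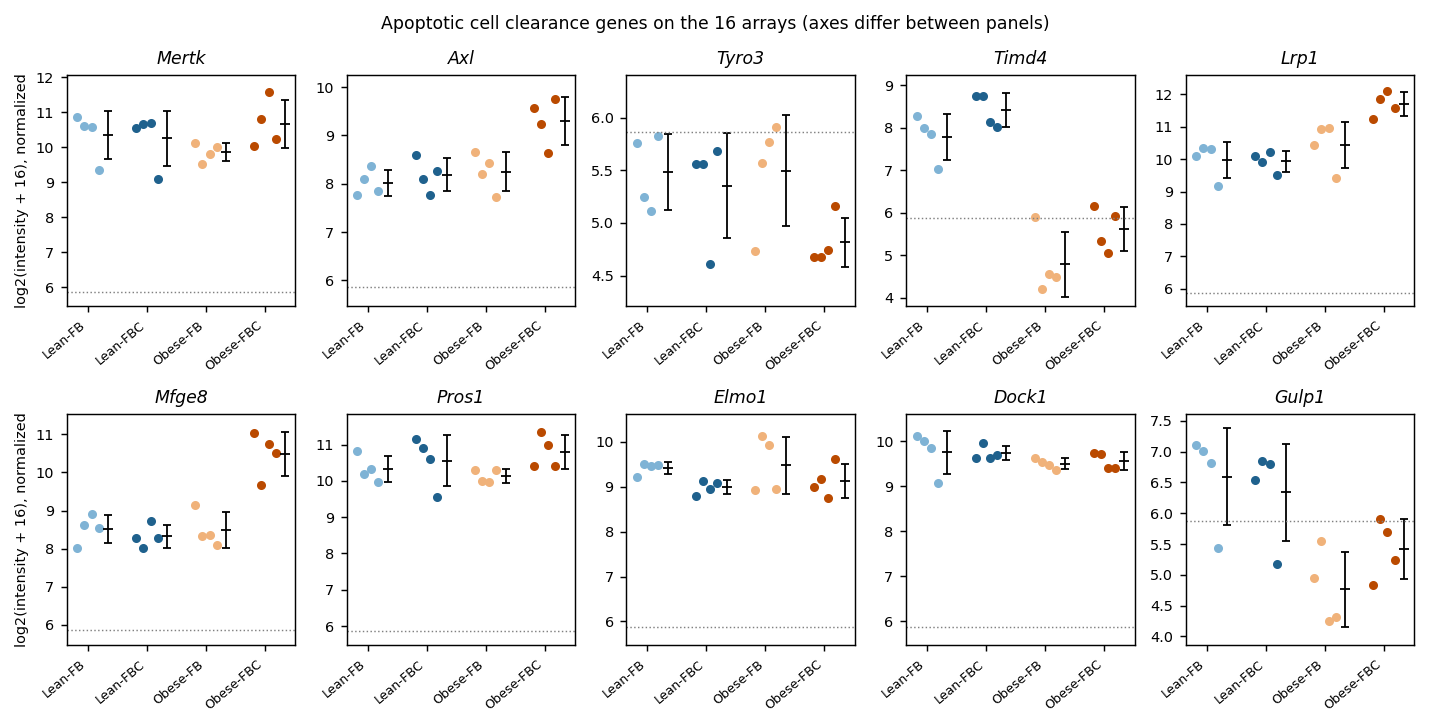
Values of the 10 genes on the 16 arrays, as normalized log2(intensity + 16), by group; points are arrays, the bar is the mean ± SD of 4 arrays and the dotted line the median probe set of the arrays (5.87). Obese FBC has the highest mean for Mfge8, Lrp1 and Axl, and also for Mertk and Pros1, whose rise in FBC was not called. Timd4 lies near or below the dotted line in both obese groups, and Tyro3 lies below it on 15 arrays.

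Timd4, the phosphatidylserine receptor of tissue-resident macrophages, showed the widest change of any member with obesity. In lean mice it was at 8.26, 7.99, 7.85 and 7.02 on the 4 FB arrays and at 8.75, 8.75, 8.12 and 8.02 on the 4 FBC arrays. In obese mice it was at 5.90, 4.20, 4.55 and 4.47 in FB and at 6.15, 5.34, 5.04 and 5.91 in FBC. The group means were 7.78 ± 0.53 (FB) and 8.41 ± 0.39 (FBC) in lean mice, and 4.78 ± 0.76 and 5.61 ± 0.51 in obese mice (SD, n = 4), so that lean FBC was highest and obese FB lowest, but the difference between FB and FBC was not called in either genotype. Every lean array lay above every obese array, and 5 of the 8 obese arrays were below the array median, as far down as a deposited intensity of 2.3 on obese FB array 2. Timd4 fell by 3.00 ± 0.36 in FB (adjusted p = 0.000124) and fell by 2.79 ± 0.36 in FBC (adjusted p = 0.000102). The obese values were near the floor of the scale, and with a pseudocount of 1 in place of 16 the difference was -4.38 in FB and -3.30 in FBC. The fall differed between the populations by 0.20 ± 0.51 (adjusted p = 0.895; 95% interval -0.88 to 1.28), but by 1.08 with a pseudocount of 1 (adjusted p = 0.599), so how alike the 2 falls are depends on the floor of the scale. Markers of dendritic cells fell in the same comparisons, 5 of 7 tested in each; their summed intensity on an array was 3200 to 3652 in lean FB, 973 to 1498 in obese FB, 7605 to 12851 in lean FBC and 3358 to 6384 in obese FBC. Of the 8 markers on the array, 6 or 7 were above the array median on each array, and their part in the Timd4 result was not tested.

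Lrp1, the large endocytic receptor, was at 10.11, 10.34, 10.32 and 9.16 in lean FB and at 10.10, 9.90, 10.21 and 9.50 in lean FBC. It was at 10.43, 10.92, 10.95 and 9.43 in obese FB and at 11.24, 11.86, 12.11 and 11.57 in obese FBC. The group means were 9.98 ± 0.56 (FB) and 9.93 ± 0.32 (FBC) in lean mice, and 10.43 ± 0.71 and 11.70 ± 0.38 in obese mice (SD, n = 4). The 4 obese FBC arrays were higher than the other 12, and the other 3 groups overlapped. Lrp1 rose with obesity by 1.77 ± 0.33 in FBC (3.40-fold, adjusted p = 0.00242), while in FB its difference was 0.45 ± 0.33 (adjusted p = 0.486). Its other probe set was above the array median on all 16 arrays but did not follow: in a fit of all single-symbol probe sets its difference in FBC was -0.11 ± 0.33 (adjusted p = 0.87), and the mean of both probe sets gave 0.83 (adjusted p = 0.0388).

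Axl, a receptor kinase of the same family as Mertk and Tyro3, was at 7.78, 8.10, 8.36 and 7.84 in lean FB, and at 8.60, 8.11, 7.77 and 8.27 in lean FBC. It was at 8.66, 8.20, 8.43 and 7.72 in obese FB and at 9.57, 9.24, 8.63 and 9.76 in obese FBC. The group means were 8.02 ± 0.27 (FB) and 8.19 ± 0.35 (FBC) in lean mice, and 8.25 ± 0.40 and 9.30 ± 0.49 in obese mice (SD, n = 4). Every obese FBC array was above every lean FBC array, but obese FBC array 3 (8.63) lay just under obese FB array 1 (8.66). Axl rose by 1.11 ± 0.26 in FBC (2.16-fold, adjusted p = 0.0106), and in FB its difference was 0.23 ± 0.26 (adjusted p = 0.673). The second Axl probe set was below the array median on all 16 arrays, and averaging it in gave 0.55 in FBC (adjusted p = 0.0327).

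The other receptor kinases gave no call as fitted. Mertk, the main kinase of the family in tissue macrophages, ranged from 9.10 to 11.58 over the 16 arrays, with group means of 10.35 ± 0.68 (FB) and 10.26 ± 0.78 (FBC) in lean mice, and 9.87 ± 0.27 and 10.67 ± 0.69 in obese mice (SD, n = 4). Its lowest values in the lean groups were on lean FB array 4 (9.35) and lean FBC array 4 (9.10), both with a high actin ratio. Both arrays also had the highest summed monocyte and eosinophil markers of their groups. On lean FB array 4 the monocyte sum was 30490, against 10478 to 12280 on the others. The eosinophil sum there was 4995, against 284 to 454. On lean FBC array 4 the sums were 12550, against 7154 to 9957, and 875, against 267 to 451. The part of these markers in the Mertk values was not tested. The obesity difference of Mertk was -0.48 ± 0.40 in FB (95% interval -1.33 to 0.37) and 0.41 ± 0.40 in FBC (95% interval -0.44 to 1.26). Without lean FB array 4 the difference in FB was -0.82 (adjusted p = 0.189), without the 3 arrays of high actin ratio it was -0.87 (adjusted p = 0.0740), and with array weights it was -0.86 and was called (adjusted p = 0.0114). Array weights called many more of all genes in FB as well. Tyro3 had group means of 5.48 (FB) and 5.35 (FBC) in lean mice, and 5.50 and 4.81 in obese mice, all below the array median, and was not tested.

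Mfge8, the secreted bridge to alpha v integrins, was higher in obese FBC macrophages than on any other array. It was at 8.02, 8.63, 8.90 and 8.55 in lean FB and at 8.28, 8.02, 8.74 and 8.28 in lean FBC. It was at 9.16, 8.35, 8.36 and 8.09 in obese FB and at 11.04, 9.67, 10.74 and 10.50 in obese FBC. The group means were 8.52 ± 0.37 (FB) and 8.33 ± 0.30 (FBC) in lean mice, and 8.49 ± 0.46 and 10.48 ± 0.59 in obese mice (SD, n = 4). All 12 other arrays lay at or below 9.16, and the lowest obese FBC array was at 9.67. Mfge8 rose with obesity by 2.16 ± 0.29 in FBC (4.45-fold, adjusted p = 0.000156), against -0.04 ± 0.29 in FB (adjusted p = 0.964; 95% interval -0.66 to 0.58). It kept this call in FBC with each array left out, at adjusted p between 5.23e-05 and 0.000953.

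Pros1, the other bridge and a ligand of Mertk and Tyro3, gave no call. It ranged from 9.56 to 11.35, with group means of 10.33 ± 0.37 (FB) and 10.56 ± 0.71 (FBC) in lean mice, and 10.14 ± 0.19 and 10.79 ± 0.46 in obese mice (SD, n = 4). Its obesity difference was -0.19 ± 0.31 in FB and 0.23 ± 0.31 in FBC, with a 95% interval of -0.42 to 0.88 in FBC.

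Of the adaptors, Elmo1 and Dock1 gave no call with obesity. Elmo1 had a difference of 0.06 ± 0.26 in FB and 0.14 ± 0.26 in FBC, with 95% intervals of -0.49 to 0.61 and -0.41 to 0.69. Dock1, its partner in the Rac exchange complex, had -0.26 ± 0.20 in FB and -0.17 ± 0.20 in FBC, with intervals of -0.69 to 0.18 and -0.60 to 0.27. Elmo1 ranged from 8.74 to 10.13 over all arrays, and the group means of Dock1 were 9.75 ± 0.47 (FB) and 9.73 ± 0.16 (FBC) in lean mice, and 9.50 ± 0.12 and 9.56 ± 0.19 in obese mice (SD, n = 4). Another Elmo1 probe set was above the array median on 7 arrays. In a fit of all single-symbol probe sets it was lower in FBC than in FB in both genotypes, and neither difference passed. In obese mice the difference was -0.95 ± 0.29 (adjusted p = 0.0644), with groups that did not overlap. In lean mice it was -0.88 ± 0.29 (adjusted p = 0.433), with groups that overlapped. The remaining probe sets of Elmo1 and Dock1 were below the median on all 16 arrays.

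Gulp1, the adaptor of Lrp1, was at 7.11, 7.01, 6.82 and 5.44 in lean FB and at 6.54, 6.85, 6.79 and 5.17 in lean FBC. It was at 4.94, 5.56, 4.26 and 4.32 in obese FB and at 4.83, 5.91, 5.69 and 5.24 in obese FBC. The group means were 6.60 ± 0.78 (FB) and 6.34 ± 0.79 (FBC) in lean mice, and 4.77 ± 0.61 and 5.42 ± 0.48 in obese mice (SD, n = 4). Within the lean groups array 4 stood well below the other 3, inside the range of the obese arrays of its population. Gulp1 fell by 1.83 ± 0.43 in FB (adjusted p = 0.0177), and in FBC its difference was -0.92 ± 0.43 (adjusted p = 0.164). The call in FB rested on the probe set: another Gulp1 probe set had nearly the same mean level and a difference of -0.11 ± 0.29 in FB (adjusted p = 0.887, all single-symbol probe sets tested). It also ended without lean FB array 1 (-1.66, adjusted p = 0.0639), 2 (-1.69, adjusted p = 0.0697) or 3 (-1.75, adjusted p = 0.0622) and without obese FB array 3 (-1.66, adjusted p = 0.0636), and without the 3 arrays of high actin ratio Gulp1 was called in FBC as well (-1.31, adjusted p = 0.00623).

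Some fibroblast and preadipocyte markers fell in the FB comparison in which the brightest Gulp1 probe set fell. Of 18 such markers, all tested, 8 fell and 0 rose with obesity in FB, and 0 were called in FBC. Their summed intensity on an array was 15547 to 42802 in lean FB and 9283 to 12453 in obese FB, and 14366 to 32296 in lean FBC and 12513 to 32529 in obese FBC. In both lean groups array 4 had the lowest mean level of these markers, 7.68 in FB against at least 9.57 on the others, and 7.40 in FBC against at least 8.86. At least 14 of the 18 were above the array median on every array, and their part in the Gulp1 result was not tested.

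**Figure D2:**
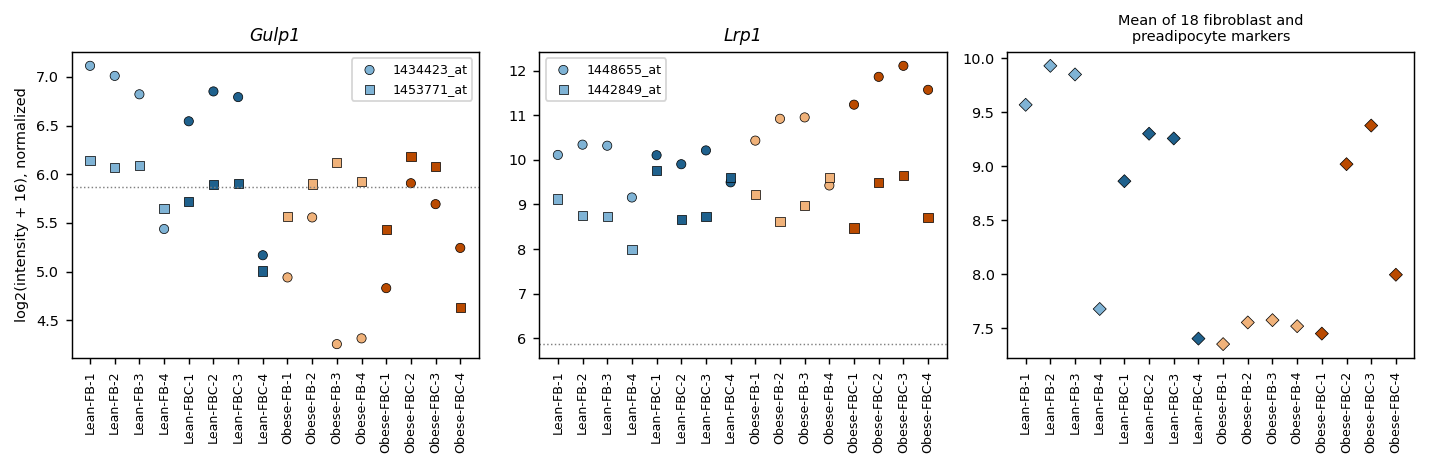
Normalized log2(intensity + 16) on each of the 16 arrays for the 2 brightest probe sets of Gulp1 (left) and both of Lrp1 (middle), and the mean level of 18 fibroblast and preadipocyte markers (right); colours are the 4 groups and the dotted line is the array median. For both genes the probe set drawn as circles gave a call with obesity and the one drawn as squares gave none, and array 4 of both lean groups is low for Gulp1 and for the markers.

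In lean mice none of the tested members was called between CD11c-positive and CD11c-negative macrophages. By limma, 0 of 9 members were called, where 0.193% of all genes were (0.151% higher and 0.0420% lower). Before adjustment, p was under 0.05 for 0 of the 9 on the probe sets tested. These leave out the Elmo1 probe set that was above the median on 7 arrays (-0.88 ± 0.29). The members' differences, FBC against FB, ran from -0.43 ± 0.26 for Elmo1 to 0.63 ± 0.36 for Timd4, with a median of -0.05. Elmo1 was the 1 member whose lean groups did not overlap, at 9.22, 9.52, 9.47 and 9.49 in FB and 8.80, 9.13, 8.95 and 9.09 in FBC (adjusted p = 0.709), against 5.63% of all genes. The intervals still allow differences in this comparison, as for Mfge8 (95% interval -0.81 to 0.43) and Mertk (-0.95 to 0.76).

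In obese mice 3 of the 9 members were higher in FBC than in FB and 0 lower, where 8.39% of all genes were called (5.11% higher and 3.28% lower). Mfge8 was higher by 2.00 ± 0.29 (3.99-fold, adjusted p = 0.000593), Lrp1 by 1.26 ± 0.33 (2.40-fold, adjusted p = 0.0272) and Axl by 1.05 ± 0.26 (2.07-fold, adjusted p = 0.0205). The groups did not overlap for Mfge8, Lrp1 and Pros1, 3 of 9, against 17.7% of all genes; Pros1 was not called (0.65 ± 0.31, adjusted p = 0.201), nor were Timd4 (0.83 ± 0.36, adjusted p = 0.164) and Mertk (0.79 ± 0.40, adjusted p = 0.231). The obese FBC arrays also enter the obesity comparison in FBC, so both sets of values share them.

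Of these 3 calls, that of Mfge8 held with each array left out. The call of Lrp1 ended without obese FB array 4 (0.93, adjusted p = 0.0839), or obese FBC array 2 (1.21, adjusted p = 0.0796), 3 (1.12, adjusted p = 0.0763) or 4 (1.30, adjusted p = 0.0503). The Lrp1 call also depended on the probe set: the other one had a difference of -0.02 ± 0.33 here (adjusted p = 0.976, all single-symbol probe sets tested), and with the mean of both the call was lost (0.62, adjusted p = 0.140). The call of Axl ended without obese FB array 2 (1.03, adjusted p = 0.0524) or 4 (0.87, adjusted p = 0.0715), or obese FBC array 1 (0.96, adjusted p = 0.0529) or 4 (0.90, adjusted p = 0.0671). With the actin ratio as a covariate Lrp1 was at 0.89 (adjusted p = 0.0794) and Axl at 0.87 (adjusted p = 0.0673), and without the 3 arrays of high actin ratio Axl was at 0.87 (adjusted p = 0.0513); Mfge8 was called in both settings. Monocyte markers were lower in obese FBC, all 7 of those tested, all above the array median on every array, with a summed intensity of 27475 to 41189 in obese FB and 5576 to 6371 in obese FBC. Of 4 neutrophil markers 3 were lower in obese FBC (summed intensity 660.1 to 3085 in obese FB and 241.9 to 1082 in obese FBC), and of 7 dendritic cell markers 3 were higher. Of 18 fibroblast and preadipocyte markers 1 was higher in obese FBC and 0 lower, with a median difference of 0.92. Their summed intensity was 9283 to 12453 in obese FB and 12513 to 32529 in obese FBC. The part of these markers in the differences was not tested.

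**Figure D3:**
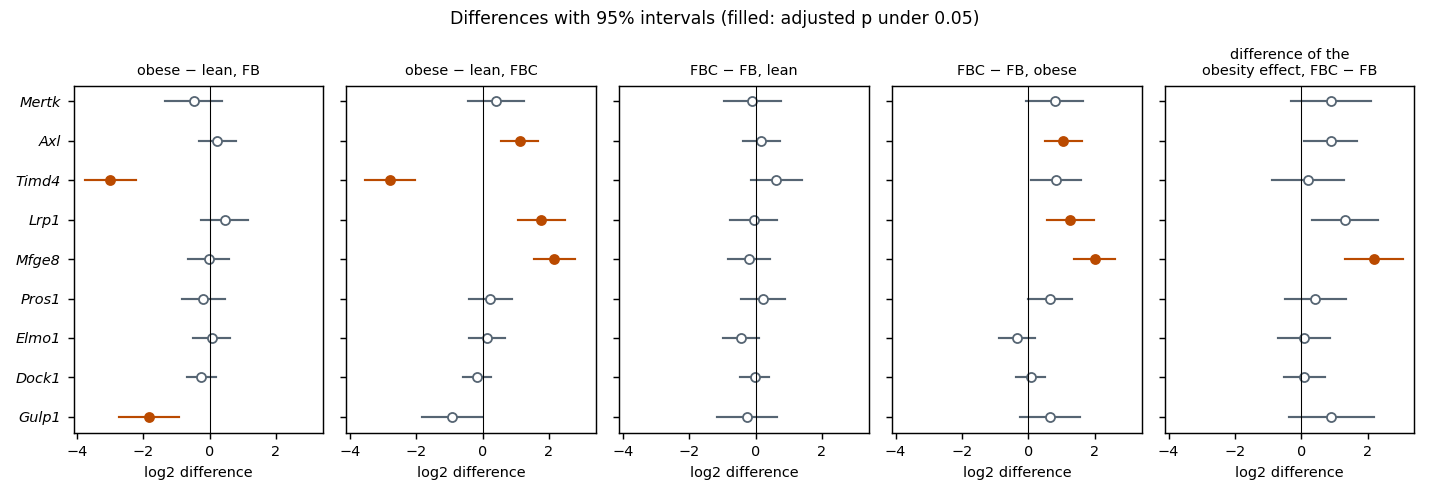
Log2 differences of the 9 tested members with 95% intervals in the 5 comparisons, filled where the adjusted p is under 0.05. Timd4 lies at -3.00 and -2.79 in the obesity comparisons, the lean comparison of FBC with FB has no filled point, and Mfge8 is the filled point for the difference of the obesity effect (2.19).

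Whether obesity acted differently in the 2 populations was tested as the difference of the obesity effect, FBC minus FB. Mfge8 was called, at 2.19 ± 0.41 (adjusted p = 0.0457; 95% interval 1.31 to 3.07), 1 of 9 members where 0.160% of all genes were called (0.0840% higher and 0.0756% lower). These all-gene calls were 10 higher and 9 lower, but 18 and 8 without quantile normalization, where the median over all genes moved from 0.07 to 0.17, and 12 and 7 with cyclic loess; Mfge8 was called in both. This call was close to the threshold: it ended on leaving out any 1 of 12 of the 16 arrays, with values from 2.01 to 2.36 and adjusted p from 0.0559 to 0.124. It held without lean FB array 4, lean FBC array 3, obese FB array 1 or obese FBC array 2. The differences for Lrp1 (1.31 ± 0.47, adjusted p = 0.248) and Axl (0.88 ± 0.37, adjusted p = 0.319) did not pass, so for these genes a rise in FBC but not in FB is not shown to be a difference between the populations. With array weights both did, at 1.16 for Lrp1 (adjusted p = 0.0190) and 1.15 for Axl (adjusted p = 0.0158). The weights ran from 0.25 (lean FB array 4) to 6.54 (lean FBC array 2), and this setting called many more of all genes as well.

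The genes whose 16 values were most like those of each called member are given as a description, with Pearson r over the 16 arrays, which share the group structure. For Timd4 they were Arg1 (0.960), Lpar1 (0.955) and Thsd4 (0.954). For Mfge8 they were Actr1a (0.927), Mocos (0.926) and Cd84 (0.923). For Lrp1 they were Scamp5 (0.979), Mfsd5 (0.965) and Rcan3 (0.963), and for Axl Myo1e (0.928), Akap2 (0.927) and Tmx1 (0.926). For Gulp1 they were Cd81 (0.962), C1qtnf1 (0.961) and Hrh1 (0.958). No other member was among them.

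Other genes of apoptotic cell clearance were read from a list of 48, of which 47 were on the array and 40 were tested. In FB, 5 rose with obesity and 0 fell, against 1.81% and 4.07% of all genes, with a median of 0.15 over the 40 and 0.03 over all genes. In FBC, 8 rose and 1 fell, against 8.12% and 5.95%, with medians of 0.30 and 0.08. Between FBC and FB in lean mice limma called 0 of the 40, of which 2 had an unadjusted p under 0.05, where 0.193% of all genes were called. In obese mice 2 were higher and 3 lower, against 5.11% and 3.28% of all genes.

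Among the other receptors, 3 of 11 rose in FB, where 1.81% of all genes did, and 4 of 11 in FBC, where 8.12% did. The integrin chains Itgav and Itgb5, which pair in a receptor for Mfge8, rose in both: Itgav by 1.37 ± 0.21 in FB (adjusted p = 0.00109) and 1.08 ± 0.21 in FBC (adjusted p = 0.00317), and Itgb5 by 1.09 ± 0.23 in FB (adjusted p = 0.00923) and 2.11 ± 0.23 in FBC (adjusted p = 1.4e-05). The mean of its probe sets lowered the Itgav difference to 0.68 in FB and 0.43 in FBC (adjusted p = 0.0846). The scavenger receptor Stab2, also a phosphatidylserine receptor, rose by 0.73 ± 0.14 in FB (adjusted p = 0.00498) and 1.81 ± 0.14 in FBC (adjusted p = 1.9e-06). Stab2 was the 1 gene of the list called for the difference of the obesity effect, at 1.08 ± 0.20 (adjusted p = 0.0418), a call that ended on leaving out any 1 of 13 arrays (adjusted p from 0.0517 to 0.122) and held without lean FB array 4, lean FBC array 3 or obese FB array 1. The inhibitory receptor Cd300a rose in FBC by 1.06 ± 0.29 (adjusted p = 0.0225).

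Of the signals that hold phagocytosis back, Sirpa, the receptor of the protective surface protein CD47, rose in FBC by 0.87 ± 0.25 (adjusted p = 0.0271), and Cd24a, which encodes another protective surface protein, fell by 2.85 ± 0.57 (adjusted p = 0.00389). The nuclear receptor Pparg, which in macrophages controls lipid metabolism and clearance genes, rose by 1.14 ± 0.20 in FB (adjusted p = 0.00279) and 0.68 ± 0.20 in FBC (adjusted p = 0.0346). Nr1h3, the oxysterol receptor that induces Mertk, rose in FBC by 0.84 ± 0.18 (adjusted p = 0.00532). Of the receptors for signals released by dying cells, the chemokine receptor Cx3cr1 rose in FB by 1.80 ± 0.32 (adjusted p = 0.00300) and the nucleotide receptor P2ry6 in FBC by 1.03 ± 0.24 (adjusted p = 0.0104). The call of Cd300a in FBC ended without lean FBC array 1, 2 or 3 or obese FBC array 2 (adjusted p from 0.0503 to 0.0774). The call of Sirpa in FBC ended without lean FBC array 2, 3 or 4 or obese FBC array 1, 2 or 4 (adjusted p from 0.0514 to 0.0706). The call of Pparg in FBC ended without lean FBC array 1, 2 or 4 or obese FBC array 1, 2 or 4 (adjusted p from 0.0529 to 0.0977). By limma, 0 of 7 other bridges and 0 of 11 other engulfment genes were called in either obesity comparison. Over all genes 5.89% were called in FB and 14.1% in FBC, so counts of 0 among so few genes do not set these lists apart.

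In obese mice, Stab2 (1.33 ± 0.14, adjusted p = 4.77e-05) and Nr1h3 (0.71 ± 0.18, adjusted p = 0.0192) were higher in FBC than in FB. Lower in FBC were the bridge thrombospondin, Thbs1 (-3.86 ± 0.72, adjusted p = 0.00341), Cx3cr1 (-2.11 ± 0.32, adjusted p = 0.000817) and the receptor Cd300lf (-2.35 ± 0.63, adjusted p = 0.0281). The Nr1h3 call ended without obese FB array 2 or 4 or obese FBC array 4 (adjusted p from 0.0565 to 0.0621), and with the actin ratio as a covariate. The Cd300lf call ended without obese FB array 2, 3 or 4 or obese FBC array 1, 2 or 4 (adjusted p from 0.0584 to 0.0822), and with the actin ratio as a covariate.

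**Figure D4:**
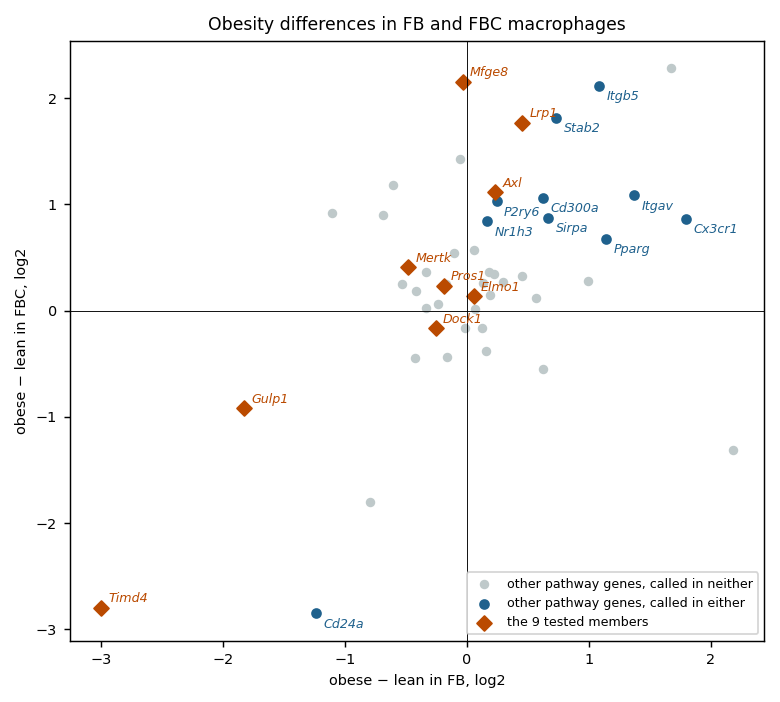
Obesity difference in FB (horizontal) and in FBC macrophages (vertical), both log2, for the 9 tested members (diamonds) and 40 other clearance genes (circles, blue where called in either comparison). Mfge8, Lrp1 and Axl lie between -0.04 and 0.45 on the FB axis and above 1 on the FBC axis, Itgav and Itgb5 lie above 1 on both, and Timd4 lies below -2 on both.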

How the data were processed

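RNA of sorted fat macrophages, amplified in 2 rounds, was measured on 16 Affymetrix Mouse Genome arrays. The deposited values are linear probe set intensities made by the authors; the submitters' processing notes name Affymetrix Expression Console as the software. For its version, its summarization method and the build, the sources used here give nothing, and detection calls were not used. On every array the mean after trimming 2% of probe sets at either end was 250, so a shift shared by all genes could not be seen. Precision is limited by how few arrays there are.

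Of 45101 probe sets, 34945 carried 1 gene symbol, 932 several and 9160 none, besides 64 controls; 34741 of the single symbols' probe sets matched RefSeq. Values were taken as log2(intensity + 16), quantile normalized, and reduced to the highest-mean probe set of each of 18193 genes. A gene was kept where it exceeded the median of its array on 4 or more arrays, and the 11908 kept were fitted with limma 3.58.1 in R 4.3.3 (lmFit, eBayes) in 1 model of 4 groups with 12 residual degrees of freedom. Adjusted p-values are Benjamini-Hochberg over these genes within a comparison. The procedure was tested on simulated data. Figures were drawn with matplotlib 3.10.9.

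The members, gene lists and marker lists were chosen with earlier results of these data known, so their counts are descriptions. All members were named, with the called genes of the lists (at most 4 per list and comparison) and the 3 genes with the highest correlation to each called member. Residuals of same-numbered FB and FBC arrays correlated at 0.135 to 0.595 in lean mice and at -0.137 to 0.310 in obese mice. In lean mice arrays of different numbers among 1 to 3 correlated at up to 0.367 (1 with 3), and array 4 of both populations stood apart from the rest, so the correlations do not show that the number marks a mouse, and it was used only as an alternative block. Alternatives covered normalization, filter, pseudocount, choice of probe set, array weights, samples fitted, actin ratio and each array left out.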

Additional observations from a re-analysis of the deposited data

Results flagged for a closer look

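Among the 40 combinations of a gene and a group, 5 held an array far from the other 3; the gap, divided by the range of the group, exceeded Dixon's critical value, which about 1 in 20 groups exceed by chance. Mertk was at 9.10 on lean FBC array 4, against 10.55 to 10.71 on the other 3. Tyro3, below the array median on 15 of 16 arrays, was at 4.61 on lean FBC array 3, against 5.56 to 5.68, and at 5.16 on obese FBC array 4, against 4.67 to 4.74. Elmo1 was at 9.22 on lean FB array 1, against 9.47 to 9.52. Dock1 was at 9.96 on lean FBC array 2, against 9.63 to 9.69.

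The obesity effect on Mfge8 differed between the populations by 2.19 ± 0.41 in limma's test of the difference itself (adjusted p = 0.0457), with a difference of 2.16 in FBC and of -0.04 in FB.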

How the results depend on the processing

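Timd4 in FB and in FBC, and Mfge8, Lrp1 and Axl in FBC, kept their direction and their call under every alternative run on the gene's brightest probe set or the mean of its probe sets, as did Mfge8 between obese FBC and FB; the other Lrp1 probe set, tested singly, gave no call in FBC (-0.11, adjusted p = 0.870). The number of members called in FB (2 as reported) was 1 with the mean of probe sets, where Gulp1 was not tested, 1 with a pseudocount of 1, where Gulp1 took another probe set, and 5 with array weights, and 1 to 2 without 1 array. The number between lean FBC and FB (0) was 1 with array weights. The number between obese FBC and FB (3) was 5 with array weights, 2 with the mean of probe sets, where Lrp1 was lost (0.62, adjusted p = 0.140), 2 without the 3 arrays of highest actin ratio, where Axl was lost, 1 with the actin ratio as a covariate, and 1 to 4 without 1 array. The number for the difference of the obesity effect (1) was 0 with no filter, with all probe sets singly, with a pseudocount of 1 and with the actin covariate, 3 with array weights, and 0 to 1 without 1 array.

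Array weights added calls for Mertk, Lrp1 and Dock1 in FB, Gulp1 in FBC, Timd4 between the lean and Timd4 and Pros1 between the obese populations, and Lrp1 and Axl for the difference of the effect. Direction changed only for differences that were not called. Without the 3 arrays of highest actin ratio, Mfge8 in FB was 0.11, Pros1 in FBC -0.10 and Elmo1 for the difference of the effect -0.087. With array weights, Mertk in FBC was -0.069, Pros1 in FBC -0.12, Mertk between the lean populations 0.026, Axl there -0.055 and Elmo1 for the difference of the effect -0.28. With the mean of probe sets Lrp1 between the lean populations was 0.25. With the actin covariate, Dock1 between the obese populations was -0.095, and the difference of the effect was -0.079 for Timd4 and -0.043 for Dock1. With a pseudocount of 1 Gulp1 was -0.53 between the obese populations and -0.0087 for the difference of the effect, and with cyclic loess Timd4 was -0.016 for the latter. On leaving out 1 array, Mfge8 in FB ran from -0.26 to 0.10, Elmo1 in FB from -0.16 to 0.25, Elmo1 in FBC from -0.027 to 0.27 and Pros1 in FBC from -0.10 to 0.44. Between the lean populations Mertk ran from -0.43 to 0.29, Lrp1 from -0.33 to 0.091, Dock1 from -0.26 to 0.093 and Gulp1 from -0.64 to 0.13. For the difference of the effect Elmo1 ran from -0.11 to 0.29 and Dock1 from -0.029 to 0.32. The cause was not tested.

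Over all genes, leaving out 1 array gave 333 to 1501 calls in FB, 1040 to 2011 in FBC, 8 to 34 between the lean and 553 to 1328 between the obese populations; array weights gave 3987, 4115, 1324 and 2202. With the replicate block, 2 members were called in FB, 4 in FBC, 0 between the lean populations, 4 between the obese (Timd4 was added, adjusted p = 0.0299) and 1 for the difference of the effect; over all genes the block gave 51 calls between the lean, 1655 between the obese populations and 230 for the difference. Without the 3 arrays of high actin ratio the all-gene counts were 2022 in FB, 2507 in FBC, 15 between the lean and 1377 between the obese populations, and 298 for the difference of the effect, and with the actin covariate they were 1159, 1667, 62, 689 and 22. For the difference of the effect, 19 as reported, leaving out 1 array gave 2 to 349 genes, array weights 1536, no filter 3, all probe sets singly 5 and a pseudocount of 1 gave 4; between the lean populations, 23 as reported, fitting only the groups compared gave 9 and the stricter filter 37. Alternatives for the other clearance genes were added after seeing the data. Stab2 in FB (adjusted p = 0.0622) and Sirpa in FBC (0.0703) lost their call without quantile normalization, Cd300a in FBC with the mean of probe sets (0.136), and Pparg in FBC when only the groups compared were fitted (0.0668) or with the actin covariate (0.0673). The Stab2 call for the difference of the effect was lost with no filter (0.0593), with all probe sets singly (0.0688) and with a pseudocount of 1 (0.0748). Signal limits Timd4, Gulp1 and Tyro3, whose low values lie near or below the array median.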
